A study of Mus musculus with 6 samples.

Results

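Cemip and 8 further genes of hyaluronan synthesis, breakdown and binding (Has1, Has2, Hyal1, Hyal2, Cd44, Hmmr, Vcan and Tnfaip6) are described here in mouse bone marrow cultures. They are 9 of the 23622 genes in the deposited expression table and were picked by name, after the fall of Cemip and Vcan in the same control and knockout libraries had been seen. The difference between the groups is therefore given for these 9 genes as a description. No p-value is given for them, and the number that passed in the fit over all genes is printed once, beside the share of all genes, and supports nothing. Messenger RNA was profiled in 6 untreated primary cultures of marrow-derived bone progenitors, taken at an age of 2 weeks from C57BL/6 mice and grown to the third generation. The control group is labelled wild type (ctrl) and the other Ift140-/- (cko), called cKO here, with 3 biological replicates each, numbered 2, 3 and 4. Ift140 encodes a subunit of the complex that returns cargo from the tip of the primary cilium. The sources used here give neither the driver of the deletion nor the litters behind the cultures, and p-values measure the spread between these cultures.

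Hyaluronan is a long sugar chain of the extracellular matrix, made at the cell surface by the synthases Has1, Has2 and Has3 and extruded as it grows. Cemip binds it and drives its cleavage outside the cell, while Hyal2 at the membrane and Hyal1 in the lysosome cut it further. Cells hold the chain through Cd44, and versican (Vcan) and the secreted protein Tnfaip6 (TSG-6) bind and organise it, so that the coat around stromal cells depends on synthesis, cutting and binding together. In bone marrow, hyaluronan is part of the matrix between stromal and blood-forming cells.

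The checks on the libraries bear on each comparison that follows. Ift140 was at 3.11, 2.75 and 3.05 FPKM (reads scaled to the length of the gene and the total of the library) in controls 2, 3 and 4 and at 1.72, 1.74 and 1.90 FPKM in cKO 2, 3 and 4, so 60.2% of the control mean remained. Sex-linked genes had a male pattern in controls and a female one in cKO, with Xist at 0.0732 ± 0.0401 and 38.2 ± 1.85 FPKM and Ddx3y at 5107 reads against 1 (mean ± SD, n = 3 libraries each). Genotype and sex pattern cannot be told apart in these libraries. None of the 9 genes lies on X or Y, which does not change this. The 8 stromal markers were expressed in each library, with summed levels of 4315 to 4768 FPKM in controls and 3487 to 4825 FPKM in cKO. Most of that sum was Col1a1. Of the 8, 4 had a negative and 4 a positive log2 fold change. Prrx1 was lower, at 24.0 ± 1.51 and 18.7 ± 0.824 FPKM (adjusted p = 0.0313 in limma's fit over all genes). Col1a2 was also lower in each cKO library than in each control, and Pdgfra was higher. The 11 macrophage markers summed to 1669, 932 and 1264 FPKM in controls 2, 3 and 4 and to 1588, 1966 and 1456 FPKM in cKO, so the cultures also held macrophages and control 3 was lowest. Most of that sum was C1qa, C1qb and C1qc. Of the 11, 9 had a positive and 2 a negative log2 fold change (median 0.24), with 0 past limma's threshold. Cd68 was higher in each cKO library than in each control, at 153 ± 45.6 and 219 ± 21.9 FPKM (limma adjusted p = 0.148). The summed level of the 7 granulocyte markers was higher in cKO (80.2 to 244 against 5.42 to 38.9 FPKM). That of the 7 endothelial markers, most of it Cdh5, was lower (14.0 to 16.0 against 18.5 to 24.2 FPKM). Of these 7, Vwf (0.319 ± 0.161 and 0.604 ± 0.114 FPKM) and Cldn5 (0.172 ± 0.0943 and 0.393 ± 0.0183 FPKM), both too low to be tested, were instead higher in each cKO library than in each control. Of the granulocyte markers 3 were too low to be tested, and the 4 tested had a positive log2 fold change with 0 past limma's threshold. S100a9 was at 11.8 ± 9.08 and 74.3 ± 41.0 FPKM (limma adjusted p = 0.0787). Ly6g and Mpo were at 0 in cKO 3, and Elane was at 0 in each library but cKO 4. The 4 lymphocyte and 2 erythroid markers with a row did not exceed 1.72 and 0.342 FPKM in sum.

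Cemip, the hyaluronan-cleaving protein, had the largest difference of the 9 genes. It was at 41.4, 39.7 and 48.9 FPKM in controls 2, 3 and 4, from 10216, 10471 and 12416 reads. In cKO 2, 3 and 4 it was at 15.6, 13.9 and 14.2 FPKM, from 3275, 3073 and 4900 reads. The lowest control thus stood far above the highest cKO library, and the libraries within each group lay close together. The means were 43.3 ± 4.89 and 14.6 ± 0.898 FPKM (SD, n = 3 each), so that 33.6% of the control level remained, and the log2 fold change was -1.51 (SE 0.09) on the log2(FPKM + 1) scale, which ranked 11 of the 13326 tested genes from the largest fall. In bulk RNA a fall can mean fewer cells of the type that expresses a gene or less RNA per cell, and these cannot be told apart. The gene (ENSMUSG00000052353) lies on the minus strand at chr7:83932857-84086502 of GRCm38 (annotation GENCODE vM21), and its transcript with the most exons has 29.

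Vcan, the large chondroitin sulfate proteoglycan that binds hyaluronan through its Link modules, was also lower in each cKO library than in each control. It was at 4.45, 7.92 and 4.60 FPKM in controls 2, 3 and 4, from 1298, 2473 and 1383 reads. In the cKO libraries it was at 2.30, 2.62 and 2.80 FPKM, from 571, 684 and 1145 reads. Control 3 stood well above the other controls, and the cKO libraries were close to each other. The means were 5.66 ± 1.96 and 2.57 ± 0.254 FPKM (SD, n = 3 each), or 45.5% of the control level, with a log2 fold change of -0.86 (SE 0.19). Without control 3 the log2 fold change was -0.63, and without control 2 it was -0.99. Control 3 also had the lowest macrophage and granulocyte marker sums, whose part in its Vcan level was not tested. Vcan (ENSMUSG00000021614) lies on the minus strand at chr13:89655312-89742509 of GRCm38.

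The start regions of these 2 genes are shown because both genes were chosen for their fall. Each runs from 250 bases before the start of the gene to 50 after it, on the strand of the gene (RefSeq, GRCm38.p6), at chr7:84086456-84086755 (minus) for Cemip and chr13:89742463-89742762 (minus) for Vcan. Capitals mark matches on either strand. The letters searched were TATAAA for the TATA box, CCAAT for the box of that name, GGGCGG for SP1, TGANTCA for AP-1, GGAATG for TEAD and CTTTGA for TCF, and no matches to different motifs overlap in these 2 regions.
Cemip: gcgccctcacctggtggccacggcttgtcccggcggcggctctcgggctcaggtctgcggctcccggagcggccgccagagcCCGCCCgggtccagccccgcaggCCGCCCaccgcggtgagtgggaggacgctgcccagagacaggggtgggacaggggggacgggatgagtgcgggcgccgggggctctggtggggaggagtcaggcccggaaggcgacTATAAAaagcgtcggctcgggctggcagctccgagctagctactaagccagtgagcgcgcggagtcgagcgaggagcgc
Vcan: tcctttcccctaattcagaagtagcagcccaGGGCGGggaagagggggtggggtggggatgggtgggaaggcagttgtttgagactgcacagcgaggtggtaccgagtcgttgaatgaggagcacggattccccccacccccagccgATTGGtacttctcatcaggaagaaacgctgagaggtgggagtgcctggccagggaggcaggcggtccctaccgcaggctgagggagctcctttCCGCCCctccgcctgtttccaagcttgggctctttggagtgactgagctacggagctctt
The Cemip region holds a TATA box that begins 29 bases before the start, and SP1 boxes on the other strand at 168 and 145 bases before it. The Vcan region holds a CCAAT box on the other strand at 103 bases before the start and SP1 boxes at 219 and 10 bases before it, and no TATA box. Among the 32851 regions of this length in the table, 13.6% hold the TATA box letters, 37.4% the CCAAT box, 35.7% the SP1 box, 7.8% the AP-1, 14.7% the TEAD and 16.0% the TCF letters. The SP1 letters are thus shared by both genes and common among all genes. The table held a region for 8 of the 9 genes, all but Has2. Among the other 6, the SP1 letters lay in the regions of Hyal1, Hyal2, Cd44, Tnfaip6 and Hmmr. The CCAAT letters lay in those of Has1, Hyal1, Tnfaip6 and Hmmr, with 5 matches in Hmmr. Tnfaip6 had an AP-1 match at 142 bases before its start, and Tnfaip6 and Hyal2 had TEAD matches. A match describes the letters and does not show that a factor binds.

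Has2 was the main synthase transcript in these cultures. Per length it made up 87.3% to 91.8% of the summed level of the 3 synthases in controls and 87.1% to 92.0% in cKO, so its share overlapped between the groups. It was at 3.77, 7.94 and 5.44 FPKM in controls 2, 3 and 4, compared with 3.08, 4.30 and 4.15 FPKM in cKO 2, 3 and 4. The groups overlapped, because control 2 lay below 2 cKO libraries, and control 3 was highest as for Vcan. The means were 5.72 ± 2.10 and 3.84 ± 0.667 FPKM (SD, n = 3 each), with a log2 fold change of -0.43 (SE 0.23) that ranged from -0.66 without control 2 to -0.20 without control 3. The antisense gene Has2os shares 182 bases (4.30%) of the exons of Has2 and was at most 0.408 FPKM. Has1 had 4, 16 and 18 reads in controls 2, 3 and 4 and 3, 5 and 12 in cKO, or 0.0949 to 0.415 and 0.0836 to 0.203 FPKM. The groups overlapped, no difference was detectable at so few reads, and it was the member that did not reach the mean of 0.5 FPKM required for a fit.

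The hyaluronidases had slightly higher means in cKO than in controls. Hyal2, which is anchored in the membrane, was at 10.1, 10.6 and 9.02 FPKM in controls 2, 3 and 4, compared with 10.6, 11.7 and 10.8 FPKM in cKO, and control 3 lay just above the lowest cKO library, so the groups overlapped. Its means were 9.93 ± 0.826 and 11.0 ± 0.612 FPKM (SD, n = 3 each; log2 fold change 0.14, SE 0.08, and 0.04 after a correction for GC content). Hyal1, the lysosomal enzyme, had levels of 0.933, 1.18 and 1.06 FPKM in controls 2, 3 and 4 against 1.12, 1.26 and 1.34 FPKM in cKO (log2 fold change 0.13, SE 0.08), from 71 to 143 reads. Its value is uncertain in origin, since 50.8% of its exon bases are also exons of Naa80 on the same strand and the sources used here do not say how reads there were counted. Cemip therefore went from 4.41 ± 0.889 to 1.32 ± 0.142 times the level of Hyal2 per length, a ratio whose values did not overlap between groups.

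Cd44, a cell-surface receptor for hyaluronan, was at 15.4, 16.4 and 16.6 FPKM in controls 2, 3 and 4, from 2106 to 2398 reads. It was at 12.9, 14.3 and 14.4 FPKM in cKO, from 1496 to 2768 reads, so each cKO library was below each control, by a small step. The means were 16.1 ± 0.634 and 13.9 ± 0.890 FPKM (SD, n = 3 each; 86.0% of control; log2 fold change -0.21, SE 0.07). Leukocytes express Cd44 as well as stromal cells. The macrophage marker sums given above overlapped between the groups, though 9 of the 11 markers had a positive log2 fold change, and the granulocyte sums were higher in cKO. Their part in the Cd44 level was not tested. Hmmr (RHAMM), a hyaluronan-binding protein that also acts at the mitotic spindle, had levels of 3.03, 2.82 and 3.02 FPKM in controls 2, 3 and 4 against 2.84, 2.59 and 2.36 FPKM in cKO. The groups overlapped, as cKO 2 was above control 3 (log2 fold change -0.14, SE 0.07).

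Tnfaip6, which transfers protein chains onto hyaluronan and is induced by inflammatory signals, was low and uneven in controls. It was at 1.25, 0.867 and 1.89 FPKM in controls 2, 3 and 4, from 43, 32 and 67 reads, and at 1.06, 1.17 and 0.992 FPKM in cKO, from 31, 36 and 48 reads. The cKO values lay inside the range of the controls. The log2 fold change of -0.15 (SE 0.16) was 0.02 without control 4, the control with the highest level.

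**Figure D1:**
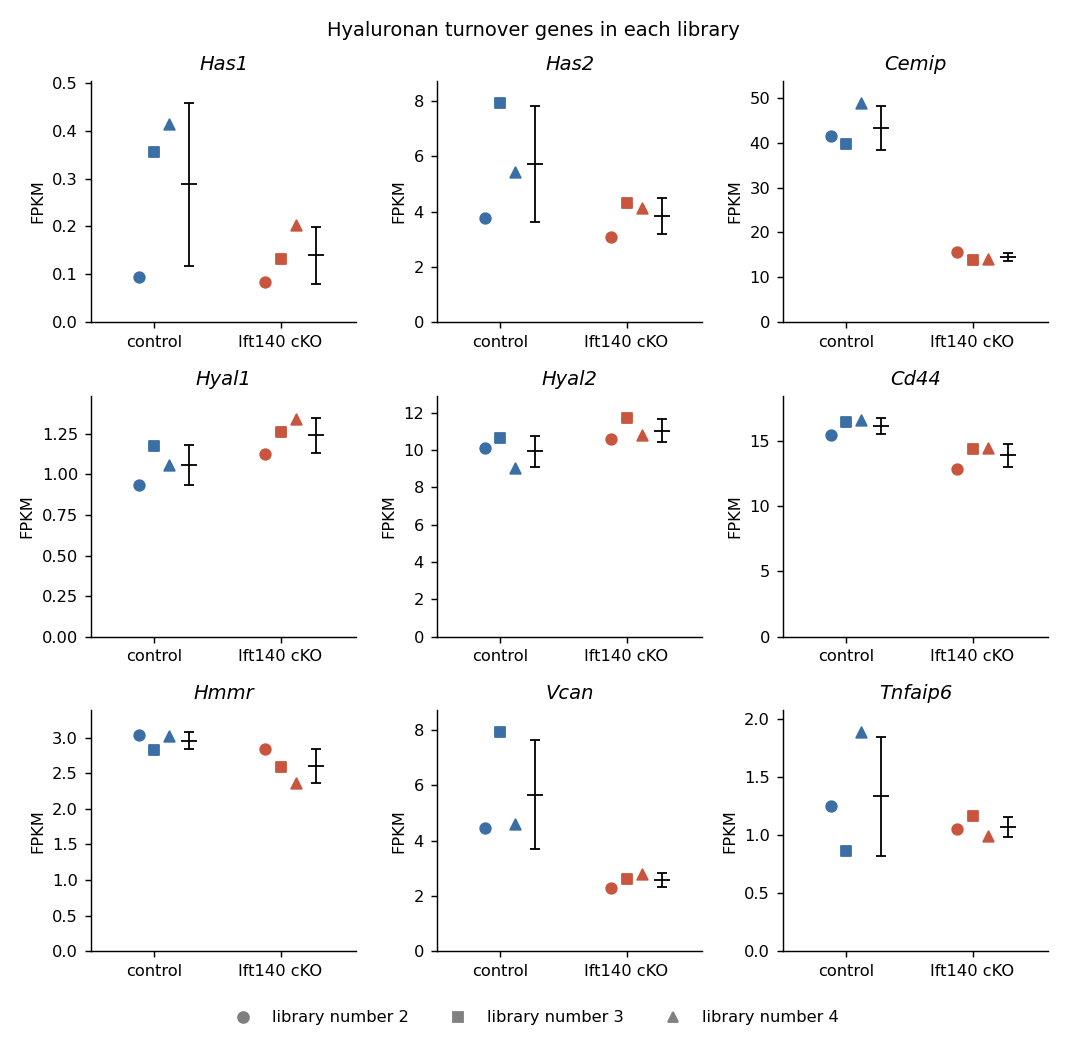
FPKM (vertical axis, from 0) of each of the 9 genes in each library, with controls in blue, cKO in red and a marker shape for each replicate number; the black bars are the mean and SD of 3 libraries. Cemip, Vcan and Cd44 are the genes whose groups do not overlap, and control 3 is highest for Vcan and Has2.

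Ordered by level per length, the controls ran from Cemip (43.3 FPKM, above 91.4% of the tested genes) through Cd44, Hyal2, Has2, Vcan, Hmmr, Tnfaip6 and Hyal1 to Has1 (0.288 FPKM). The ranges of neighbours in that order overlapped for Has2 and Vcan and for Tnfaip6 and Hyal1. In cKO Cemip (14.6 FPKM) and Cd44 (13.9 FPKM) overlapped at the top, and Vcan (2.57 FPKM) came level with Hmmr (2.60 FPKM). The length behind these levels was the union of all annotated exons for each of the 9 genes but Has1 (12232 bases for Cemip and 14462 for Vcan).

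Of the 9 genes 7 had a lower and 2 a higher mean in cKO. Of the 8 that entered limma's fit over all genes 2, Cemip and Vcan, were past the adjusted p of 0.05, both lower, where 2.57% of the 13326 tested genes were called lower and 5.04% higher. As the genes were chosen on this contrast, that count is no test of them and nothing is read from it. In 3 of the 8 (Cemip, Vcan and Cd44) each cKO library was below each control, as in 17.8% of all tested genes. The median log2 fold change of the 8 was -0.18, against -0.0011 for all tested genes. As the 8 include genes chosen for their fall, nothing is read from that difference either. Over 19 alternative fits of the same values the log2 fold change ranged from -1.62 to -1.42 for Cemip and from -1.07 to -0.63 for Vcan. Vcan was not past the threshold in 9 of these 19 fits, among them those that left out control 4 or any cKO library. Cemip was not past it in 1 of the 19. These counts too are a description and no test of the genes.

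**Figure D2:**
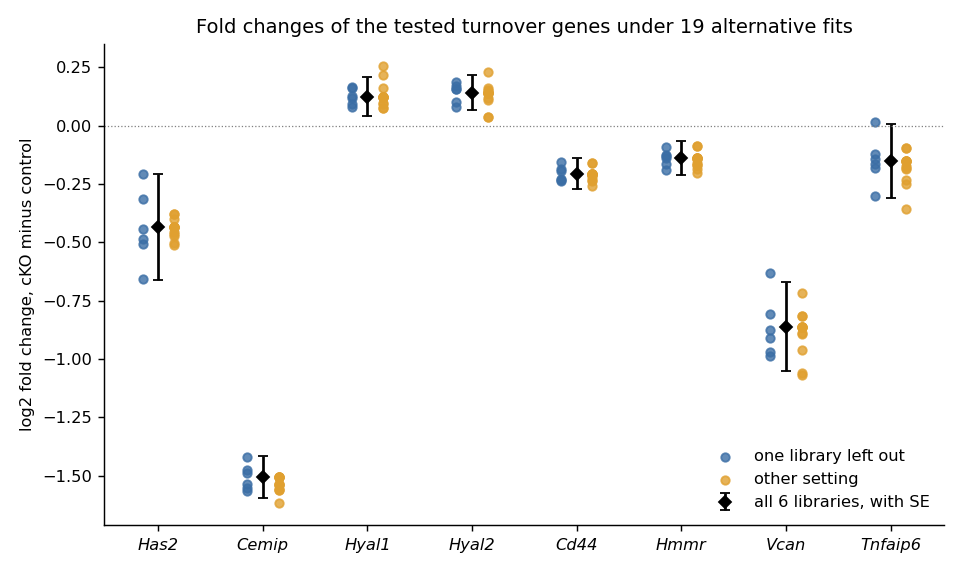
Log2 fold change, cKO minus control (vertical axis), of the 8 tested genes in the fit of all 6 libraries (black, with SE), in the 6 fits that leave out a library (blue) and in the 13 other settings (yellow). Cemip lies between -1.62 and -1.42, Vcan between -1.07 and -0.63, and Tnfaip6 reaches 0.02.

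Genes around these 9, from 9 lists of the pathway and its surroundings, were tested in the same fit. Of 100 listed genes 95 had a row and 76 were tested. Of those 6 fell and 4 rose (limma adjusted p under 0.05), 13.2% against 7.61% of all tested genes, with a median log2 fold change of -0.06. The lists were written with earlier results of these data known, so no set test was made. Where counts by voom follow, voom called 1105 genes higher and 466 lower among all 13326. Counts at an unadjusted p under 0.05 stand without a share over all genes, so nothing is read from them. The fold changes of these lists are shown in the plot of related lists.

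**Figure D3:**
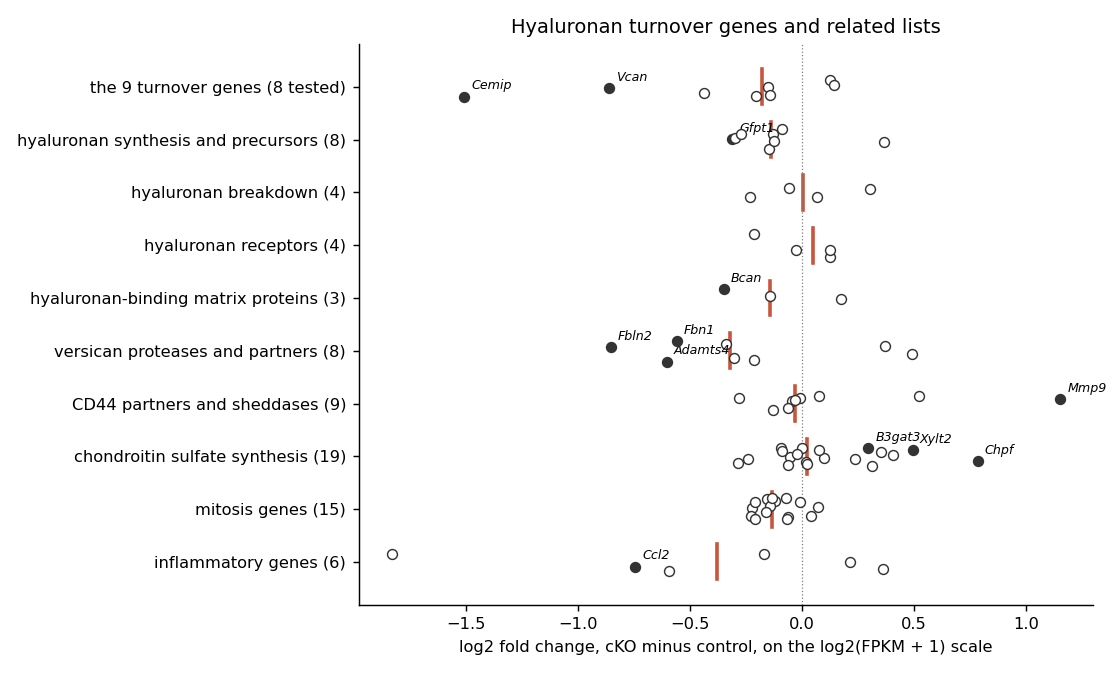
Log2 fold change, cKO minus control (horizontal axis), of each tested gene by list, with the number tested in brackets; filled and named points passed limma's adjusted p of 0.05, and red bars are medians. Cemip and Vcan, which were chosen for their fall, lie at -1.51 and -0.86, and among the other lists the versican partners Fbln2 and Fbn1 and the protease Adamts4 are lower and Chpf and Mmp9 higher.

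Among genes that feed the synthases 1 fell and the others did not pass. Of the 8 tested genes of synthesis and precursor supply 7 had a negative log2 fold change (median -0.14), and the gene that fell was Gfpt1, the enzyme that commits sugar to the hexosamine pathway and thereby to one of the building blocks of hyaluronan. Its levels were 11.7, 12.0 and 12.9 FPKM in controls 2, 3 and 4, against 9.57, 9.37 and 10.0 FPKM in cKO, a log2 fold change of -0.31 (SE 0.06; limma, adjusted p = 0.0301, and 0.00625 to 0.119 over 19 alternatives). Each cKO library was below each control. The largest log2 fold change of the list, 0.37, was positive, that of Uap1l1, named after its values were seen, at 26.1 ± 4.98 and 33.6 ± 0.790 FPKM without overlap (adjusted p = 0.134). Has3 was at 0.348 ± 0.0338 and 0.311 ± 0.0656 FPKM (SD, n = 3 each) and was not tested for its low level.

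Other genes of breakdown and uptake did not pass. Of 4 tested genes of breakdown 0 were called by limma (2 at an unadjusted p under 0.05, 0 by voom on recovered reads), 2 with a positive and 2 with a negative log2 fold change. Cemip2, a membrane-bound relative of Cemip, was at 29.8 ± 2.52 and 25.2 ± 2.08 FPKM (SD, n = 3; limma adjusted p = 0.141). The ratio of Cemip to Cemip2 per length went from 1.46 ± 0.146 in controls to 0.580 ± 0.0681 in cKO, and so Cemip2 had the higher level of the pair in each cKO library and the lower in each control. Hexa, a lysosomal enzyme that removes sugars from the ends of hyaluronan fragments and glycolipids, was at 181 ± 29.3 and 221 ± 10.5 FPKM (adjusted p = 0.161). Of 4 tested receptors 0 were called (1 at an unadjusted p under 0.05, 0 by voom). The hyaluronan receptor Layn was at 3.45 ± 0.238 and 2.84 ± 0.278 FPKM (adjusted p = 0.138) and Tlr4 at 3.71 ± 0.0997 and 4.17 ± 0.780 FPKM (adjusted p = 0.511). The receptor Stab1, named after its values were seen, had a higher level per length than Cd44 in each library. It was at 61.0 ± 15.6 and 65.9 ± 11.6 FPKM, with overlap (limma adjusted p = 0.708).

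Of versican's partners 2 fell, and of its tested proteases 1 fell. The other tested proteases did not pass, Adamts5 and Adamts9 with higher and Adamts1 with lower means in cKO. Of 8 tested versican proteases and partners 3 fell and none rose (voom called 4, and 6 had an unadjusted p under 0.05; median log2 fold change -0.32). Fbln2 (fibulin-2), a matrix protein that binds versican, was at 172, 124 and 125 FPKM in controls 2, 3 and 4, compared with 64.1, 81.7 and 85.1 FPKM in cKO. The groups did not overlap, and the log2 fold change was -0.85 (SE 0.16; limma, adjusted p = 0.0296, and 0.00724 to 0.102 over the alternatives). Fbn1 (fibrillin-1), the backbone of microfibrils to which versican binds, went from 118 ± 12.0 to 79.5 ± 3.49 FPKM (SD, n = 3; adjusted p = 0.0189, 0.00267 to 0.0839). Adamts4, a protease that cuts versican and aggrecan, went from 10.8 ± 1.03 to 6.75 ± 0.652 FPKM (adjusted p = 0.0182, 0.00352 to 0.0824). Adamts5 and Adamts9, versican-cutting proteases named after their values were seen, were higher in each cKO library than in each control. Adamts5 was at 31.9 ± 0.477 and 41.9 ± 6.13 FPKM (log2 fold change 0.37, adjusted p = 0.0705) and Adamts9 at 0.917 to 1.32 FPKM in controls and 1.44 to 2.42 FPKM in cKO (log2 fold change 0.49, adjusted p = 0.0817). Adamts1, also named afterwards, had the highest level of these proteases and went the other way. It was at 62.5 ± 7.49 and 49.6 ± 9.32 FPKM, with overlap (log2 fold change -0.34, limma adjusted p = 0.188). The partner Fbln1 was at 3.66 ± 0.302 and 3.03 ± 0.206 FPKM (adjusted p = 0.129). Tnc, which is bound by versican and was picked after its values were seen, had levels of 127, 346 and 167 FPKM in controls 2, 3 and 4 against 169, 125 and 185 FPKM in cKO (adjusted p = 0.622), highest in control 3 as were Vcan and Has2. Of 3 tested hyaluronan-binding matrix proteins 1 fell, the brain proteoglycan Bcan, from 2.06 ± 0.0281 to 1.40 ± 0.133 FPKM (adjusted p = 0.0381, 0.0136 to 0.136), with a log2 fold change of -0.35 that was -0.62 after the correction for GC content. Ptx3, a partner of Tnfaip6 in hyaluronan cross-linking that was also picked afterwards, was far higher than Tnfaip6 at 245 ± 35.4 and 277 ± 45.1 FPKM (adjusted p = 0.478).

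Genes that build the chondroitin sulfate chains carried by versican rose in 3 cases. Of 19 tested genes 3 rose and none fell (voom called 5, and 8 had an unadjusted p under 0.05; median log2 fold change 0.02). Chpf, a chain polymerising factor, was at 104, 103 and 90.0 FPKM in controls 2, 3 and 4, compared with 163, 165 and 187 FPKM in cKO, 1.73 times the control mean and without overlap. Its log2 fold change was 0.79 (SE 0.09; limma, adjusted p = 0.00867, and 0.00103 to 0.0779 over the alternatives). Xylt2, which starts the chains by adding xylose, went from 28.7 ± 3.29 to 40.7 ± 1.44 FPKM (SD, n = 3; adjusted p = 0.0249, 0.00513 to 0.17). B3gat3, which completes the linker between protein and chain, went from 39.9 ± 0.983 to 49.3 ± 2.06 FPKM (adjusted p = 0.0299, 0.00749 to 0.981). After the correction for GC content the log2 fold change of Xylt2 went from 0.50 to 0.24 and that of B3gat3 from 0.30 to 0.0032, and neither passed, while Chpf passed with 0.60.

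**Figure D4:**
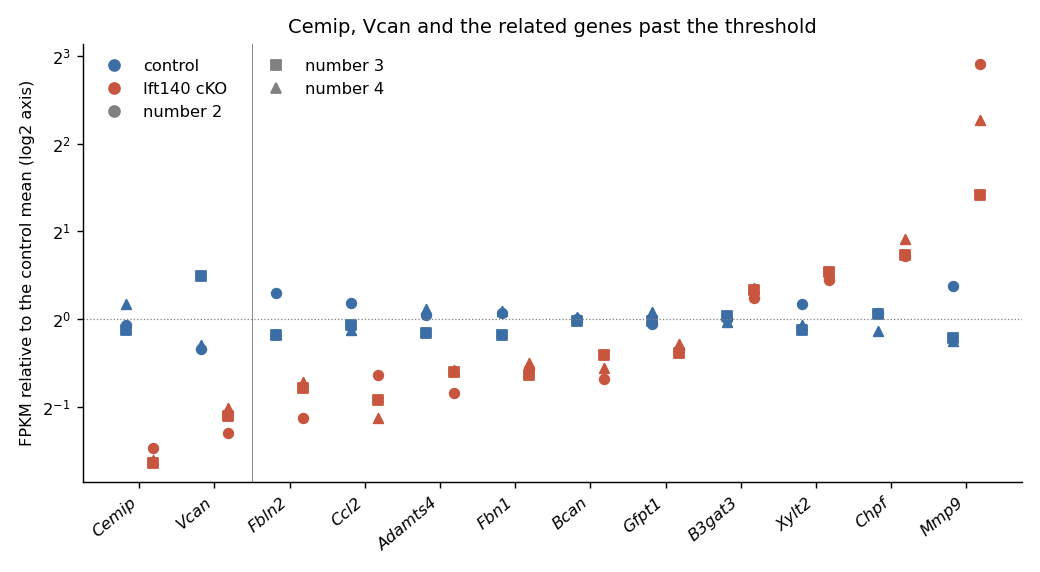
FPKM of each library relative to the control mean (vertical axis, log2 scale) for Cemip and Vcan, left of the line, and for the 10 related genes that passed, with controls in blue, cKO in red and a marker shape for each replicate number. The cKO libraries lie below the controls for 6 of the 10 and above them for 4, and Mmp9 has the widest spread among cKO libraries.

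Among 9 tested partners and sheddases of Cd44 1 rose (voom called 3, and 3 had an unadjusted p under 0.05), the gelatinase Mmp9, which Cd44 can hold at the cell surface. It went from 0.486 ± 0.126 to 2.43 ± 1.18 FPKM (SD, n = 3; log2 fold change 1.15, SE 0.24; limma, adjusted p = 0.0386, and 0.0179 to 0.138 over the alternatives). In cKO 2, 3 and 4 it was at 3.65, 1.30 and 2.35 FPKM, where the 7 granulocyte markers summed to 244, 80.2 and 132 FPKM. Granulocytes store Mmp9, and the part of these markers in its rise was not tested. Msn and Spp1 of the same list, named after their values were seen, did not pass but did not overlap between groups. Msn was lower in cKO, at 132 ± 8.72 and 108 ± 4.89 FPKM (limma adjusted p = 0.0633). Spp1 was higher in cKO, at 173 ± 11.8 and 251 ± 42.1 FPKM (adjusted p = 0.0553).

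Mitosis genes, shown beside Hmmr because dividing cells express it, did not pass. Of 15 tested 13 had a negative log2 fold change (median -0.13), close to that of Hmmr, and 0 were called by limma (3 at an unadjusted p under 0.05, 0 by voom). Bub1 was at 3.16 ± 0.147 and 2.60 ± 0.286 FPKM (SD, n = 3; adjusted p = 0.140) and Ccnb1 at 7.95 ± 0.624 and 6.66 ± 0.740 FPKM (adjusted p = 0.164). Of 6 tested inflammatory genes, shown beside Tnfaip6, 1 fell. The chemokine gene Ccl2 went from 7.11 ± 0.833 to 3.85 ± 0.651 FPKM (adjusted p = 0.0193, 0.00808 to 0.0733 over the alternatives). Ptgs2, an inflammation-induced enzyme gene picked after its values were seen, was at 14.5, 2.63 and 19.0 FPKM in controls 2, 3 and 4, compared with 1.63, 2.27 and 1.91 FPKM in cKO (adjusted p = 0.107). Controls 2 and 4 were high and control 3 low, the order that Tnfaip6 also had among the controls.

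Most of the 10 calls among related genes were lost when some library was left out. Of them 1 (Chpf) passed without control 4 (adjusted p 0.0485 to 0.138 over the 10), 2 without cKO 3 (0.0369 to 0.108), 3 without cKO 2 (0.0266 to 0.105) and 4 without cKO 4 (0.0225 to 0.103). Without control 2 and control 3 there were 7 (0.0171 to 0.0718) and 8 (0.00884 to 0.0677). Chpf was the gene called whichever library was left out. The calls over all genes dropped as well, from 672 higher and 342 lower to 45 and 26 without control 4. They were 129 and 46 without cKO 3 and 626 and 374 without control 3, so such losses were not particular to these 10 genes. Gfpt1 (adjusted p = 0.0538) and Mmp9 (0.0597) also did not pass after the correction for GC content.

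The genes whose levels were most like those of Cemip over the 6 libraries, by Pearson's r of log2(FPKM + 1) among 10819 protein-coding genes, were Bora (r = 0.999), Usp45 (0.996), Ppp2r3a (0.996), Sec23a (0.994) and Postn (0.994). Postn, which encodes the matrix protein periostin, fell to 42.5% of its control mean, and Sec23a, a coat protein of vesicles that leave the endoplasmic reticulum, to 73.0%. The other 3 stood at 75.8% to 85.1% of control. Those most like Vcan were Tmed3 (r = 0.999), Rhbdd1 (0.998), Asic3 (0.996), Rbms2 (0.996) and Serp1 (0.994), at 52.2% to 92.9% of control, none of them past limma's threshold. The 6 points share the step between the 2 groups, so these values are a description.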

How the data were processed

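Poly-T selected RNA was made into NEBNext Ultra libraries, per the labels' protocols. The authors deposited FPKM values, 1 column per library. The submitters' processing notes list HTSeq 0.6.0 and DESeq2 1.10.1 without saying what for; aligner, build and strand setting: not given in the sources used here. Symbols and coordinates came from GENCODE vM21 (GRCm38), which held 99.5% of the identifiers. Each gene's FPKM step by the worth of 1 read, so whole reads could be computed for each (100.0%) of the 23427 genes above 0 (tolerance 1e-06 of a read, widened in proportion for large counts), save for a factor common to one gene's values. The library totals behind the FPKM were 17180101 to 28283414 reads. Divided by median-ratio size factors they were nearly constant, 20622211 to 20693528, so the deposited scaling follows size factors rather than plain read sums.

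Genes averaging 0.5 FPKM or more over the 6 libraries (13326) were tested on log2(FPKM + 1) with limma 3.58.1 in R 4.3.3 (intensity trend, 2-sided, Benjamini-Hochberg, threshold 0.05), a scale that understates changes of low genes. The members and the lists were chosen with earlier results of these data known. From each list up to 4 called genes were named by size, or the 2 with the smallest p where none passed. Groups came from the genotype labels. The 19 alternatives changed the pseudocount, filter, scaling or variance prior, added library weights or a replicate block, used voom on recovered reads or a loess GC correction (span 0.5, GC of each gene's longest transcript), or left out a library. The read recovery and the fit were tested on simulated data first. Tables and plots used Python 3.11.15, numpy 2.4.6, pandas 2.3.3 and matplotlib 3.10.9.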

Additional observations from a re-analysis of the deposited data

How the results depend on the processing

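Over all genes 672 were higher and 342 lower in cKO. There were 327 and 184 with no filter on low values, 1765 and 1378 with library weights, 1105 higher with voom on recovered reads, 348 higher after the GC correction and 560 lower after quantile normalization. Rises made up 66.3% of the calls, 52.1% after quantile normalization, 55.1% after median centring, 56.2% with library weights and 46.6% after the GC correction. Leaving out a library gave 45 to 626 higher and 26 to 374 lower. Among the genes of the 9 lists, which include mitosis and inflammatory genes, 4 were higher and 6 lower. These became 10 and 13 with library weights, 8 higher with voom and 1 higher after the GC correction, and 1 to 3 higher and 0 to 8 lower with a library left out. With a replicate block 42 and 22 genes were called over all genes, and 0 and 1 in the lists. That 1 gene was Ccl2 of the inflammatory list (limma adjusted p = 0.0471), not a gene of hyaluronan itself. With the GC correction and the replicate block these were 1 and 2, and 0 and 0. Same-numbered libraries did not deviate together (correlations of -0.0394, -0.0543 and 0.0346 for numbers 2, 3 and 4), so the numbers are not taken as pairs. No value of Cemip or Vcan changed its direction. With 3 libraries a group, the smallest exact permutation p for 1 gene is 0.1, and Has1, at 3 to 18 reads a library, is limited by depth.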
